A study of Mus musculus with 16 samples.

Results

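The comparison set 8 brain tumours against 3 samples of ventral brain from control mice, 11 of the 16 arrays of the series, over 11755 genes. The 8 tumours were chosen by a label that calls each an independent tumour and the 3 controls by a label that names ventral brain as their tissue. The other 5 arrays hold dorsal brain of control mice. They were left out of the comparison and served to show which differences depended on the region used as reference. The tumours came from mice in which tumour suppressor genes were deleted with a creERTM driver, a Cre recombinase that becomes active when tamoxifen is given. The title of the study calls the tumours high-grade glioma, and they were taken when the mice had neurological symptoms. Its design text counts 10 tumours and says that the control tissue came from matching regions. Which genes were deleted, the genotype and treatment of the control mice, the age and sex of the mice and the place of each tumour in the brain are not stated in the sources used here. Controls are numbered as biological replicates.

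Ventral brain holds the hypothalamus, in which small groups of neurons make peptide hormones such as oxytocin, vasopressin, orexin and melanin-concentrating hormone. Each peptide gene is active in few cells but at a very high level there, so it marks the region even in whole tissue. Cortex and hippocampus lie dorsally and are rich in excitatory neurons that load glutamate with Slc17a7, whereas the thalamus, the hypothalamus and the brainstem use Slc17a6. Glioma cells resemble dividing glial progenitors, and microglia and macrophages commonly make up a large part of the tissue.

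Each sample's RNA was read on 1 Illumina bead array. Values are log2 signals after background correction and quantile normalization, on which an undetected gene lies near 4.4 and a difference of 1 is 2-fold. Of the 45281 probes, 18231 to 20430 were detected on a tumour array and 18891 to 19245 on a ventral array. Across genes, r was 0.985 to 0.990 among the ventral arrays, 0.878 to 0.983 among the tumours, with tumours 8 and 9 the closest pair, and 0.797 to 0.859 between the groups. The median SD of a gene was 0.437 over the tumours and 0.137 over the ventral controls. Tumours lay at positions A to D of a chip and ventral controls at E and F, so position and group cannot be told apart.

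Some arrays stood apart. Tumour 10 held transcripts of pituitary hormones, with growth hormone (Gh) at 14.59, prolactin (Prl) at 14.28 and Pomc at 13.98, while the medians of all 8 tumours were 4.40, 4.49 and 4.46. Tumour 7 held less of them (8.34, 7.95 and 5.53), as did tumour 6 (Gh 5.52 and Prl 5.56). The number of genes that passed was 4888 without tumour 10 and 4784 with it. Ventral control 2 had low signals of the hormone genes Oxt (5.67) and Avp (5.44), which lay at 11.28 to 13.42 in the other ventral controls. It had the highest ventral signals of the thalamic genes Tcf7l2 (9.36) and Gbx2 (8.13) and of Slc47a1 (8.55), Slc13a4 (9.60) and Slc6a13 (8.83), transporters of the meninges. Without ventral control 2, 3690 genes passed. Dorsal controls 4 and 5 had a mean signal of 10.54 and 11.36 over 12 striatal genes, against 7.26 to 7.41 in the other dorsal controls. Among the ventral controls Xist, which is transcribed from the inactive X chromosome, was 4.38, 9.13 and 9.18, and among the tumours it ran from 4.32 to 11.45, so low and high arrays occurred in both groups. These choices of arrays to leave out were made after seeing the data.

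The label of the ventral controls was set beside marker genes. Pmch, Hcrt, Gal and Trh of the hypothalamus were detected on 3 of 3 ventral arrays, as was the thalamic Slc17a6. Slc17a7 of cortex and hippocampus was detected on 1 of 3. Hcrt was undetected in tumours and dorsal brain. With detection required on at least 3 arrays, its detection here follows from the filter. Oxt and Avp were low in ventral control 2 (5.67 and 5.44), and Agrp, Otp and Sim1 were not among the genes tested. These markers describe the controls and are no test of the label. Of the suppressor genes that glioma models commonly delete, Nf1, a negative regulator of RAS, was measured near background. It was 5.69, 6.01 and 5.75 in the ventral controls and ran from 4.64 over a median of 4.99 to 5.36 in the tumours (log2 difference -0.86 ± 0.19 (SE), limma adjusted p = 0.00174). Its probe has no position in the sources used here, so the value does not check for a deletion.

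The promoters of 5 genes, picked with the results known, are shown as examples. Pmch and Hcrt were lost against ventral tissue, and Cdc20 and Cdca3 were among the largest rises. Isg15 is a member of the interferon response and was not among the 12 largest rises. The windows hold 250 bases before and 50 after the start of the transcript, are taken from RefSeq (GRCm38.p6) and are written 5′ to 3′ on the strand of the gene. They lie at chr10:88090822-88091121, forward strand; chr11:100762882-100763181, reverse strand; chr4:118437294-118437593, reverse strand; chr6:124829926-124830225, forward strand; and chr4:156200769-156201068, reverse strand. Capitals mark TATAAA, the TATA box, in Pmch and Hcrt, the box CCAAT in either orientation together with the hexamer TTTGAA in Cdc20 and Cdca3, and the overlapping matches to 2 copies of GAAA with 2 other bases between them in Isg15.
Pmch: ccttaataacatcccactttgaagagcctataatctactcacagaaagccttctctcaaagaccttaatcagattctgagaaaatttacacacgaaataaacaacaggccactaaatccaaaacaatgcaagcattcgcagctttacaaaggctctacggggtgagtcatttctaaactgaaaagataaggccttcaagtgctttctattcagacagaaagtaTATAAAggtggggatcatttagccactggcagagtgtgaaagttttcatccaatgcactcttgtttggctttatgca
Hcrt: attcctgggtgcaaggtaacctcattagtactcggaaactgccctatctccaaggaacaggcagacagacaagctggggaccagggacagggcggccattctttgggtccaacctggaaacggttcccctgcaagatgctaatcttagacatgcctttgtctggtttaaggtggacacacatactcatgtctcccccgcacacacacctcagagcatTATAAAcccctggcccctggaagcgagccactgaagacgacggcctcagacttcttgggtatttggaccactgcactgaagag
Cdc20: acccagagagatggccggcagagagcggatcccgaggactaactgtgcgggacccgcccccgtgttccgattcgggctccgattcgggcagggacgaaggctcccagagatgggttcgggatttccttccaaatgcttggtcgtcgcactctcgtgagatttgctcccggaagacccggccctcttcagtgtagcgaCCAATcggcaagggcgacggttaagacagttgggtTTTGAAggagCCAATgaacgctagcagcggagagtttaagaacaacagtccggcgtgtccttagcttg
Cdca3: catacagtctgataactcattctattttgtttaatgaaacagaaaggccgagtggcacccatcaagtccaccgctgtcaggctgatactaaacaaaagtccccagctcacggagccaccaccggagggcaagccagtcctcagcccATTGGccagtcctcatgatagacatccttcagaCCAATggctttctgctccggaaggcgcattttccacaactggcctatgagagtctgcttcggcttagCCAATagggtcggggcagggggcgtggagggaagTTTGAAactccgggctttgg
Isg15: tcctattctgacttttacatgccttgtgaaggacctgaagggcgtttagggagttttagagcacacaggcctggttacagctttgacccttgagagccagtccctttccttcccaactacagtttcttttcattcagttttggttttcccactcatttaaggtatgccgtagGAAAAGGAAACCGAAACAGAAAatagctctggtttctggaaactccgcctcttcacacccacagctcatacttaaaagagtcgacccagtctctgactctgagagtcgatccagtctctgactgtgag

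A TATAAA began 27 bases before the start in Pmch (position -27) and at -33 in Hcrt. Motifs were searched on both strands. TATAAA was present in 6 of 20 windows of the measured neuropeptide genes (30%) and in 13.6% of all 32851 RefSeq windows of the same length. CCAAT, the site of the factor NF-Y, was present in 21 of 27 windows of measured cell cycle genes (77.8%) and in 37.4% of all windows. TTTGAA, the core of the element through which cell cycle genes are kept silent in resting cells, was present in 14 of these 27 (51.9%) and in 17.9% of all. Both were present in 14 of them and in 6.95% of all. The paired GAAA, the core of the element bound by interferon-activated factors, was present in 8 of 16 windows of the interferon genes (50%) and in 3.44% of all, and 3 overlapping matches began at -78, -72 and -66 in Isg15. These shares describe letters in the windows. Several windows of a gene can overlap. Usp18, the interferon gene with the largest rise, had no matched window.

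Against ventral brain, the tumours had higher transcripts of cell division, of glial progenitors, of the interferon response, of macrophages and of the extracellular matrix, and lower transcripts of neurons and of hypothalamic hormones. Of 11755 genes tested, 4784 (40.7%) passed at a limma adjusted p under 0.05, with 2306 (19.6%) higher and 2478 (21.1%) lower. Counts within gene lists are to be read beside these shares. With median scaling in place of quantiles the balance turned, to 2661 higher and 2021 lower. A change of at least 2-fold was found for 2942 genes (25.0%), of which 1378 were higher (11.7% of the genes tested) and 1564 lower (13.3%). At least 16-fold were 30 higher and 54 lower genes. The 8 tumours did not overlap the 3 ventral controls in 4028 genes (34.3%), of which 1873 (15.9%) lay above and 2155 (18.3%) below. In each tumour, 94.8% to 98.8% of the genes called higher lay above all 3 ventral controls and 95.6% to 98.7% of those called lower lay below them, values that come from the arrays that gave the calls. The median difference over all genes was 0.02, or 0.11 with median scaling, and the differences given stand relative to it.

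Chip 1 held 3 of the tumours and 1 ventral control, chip 3 held 3 and 2, and chip 2 held 2 tumours and 0 ventral controls. The sign of the difference was kept by 4782 of the 4784 genes on chip 1 and by 4784 on chip 3, the arrays of which also gave the calls. With the few arrays of 1 chip, 123 genes passed within chip 1 and 3256 within chip 3. With chip as a block over all arrays 4700 passed. Without ventral control 3, 3588 genes passed, the lowest count when an array was left out, and without ventral control 1, 3710 passed.

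**Figure D1:**
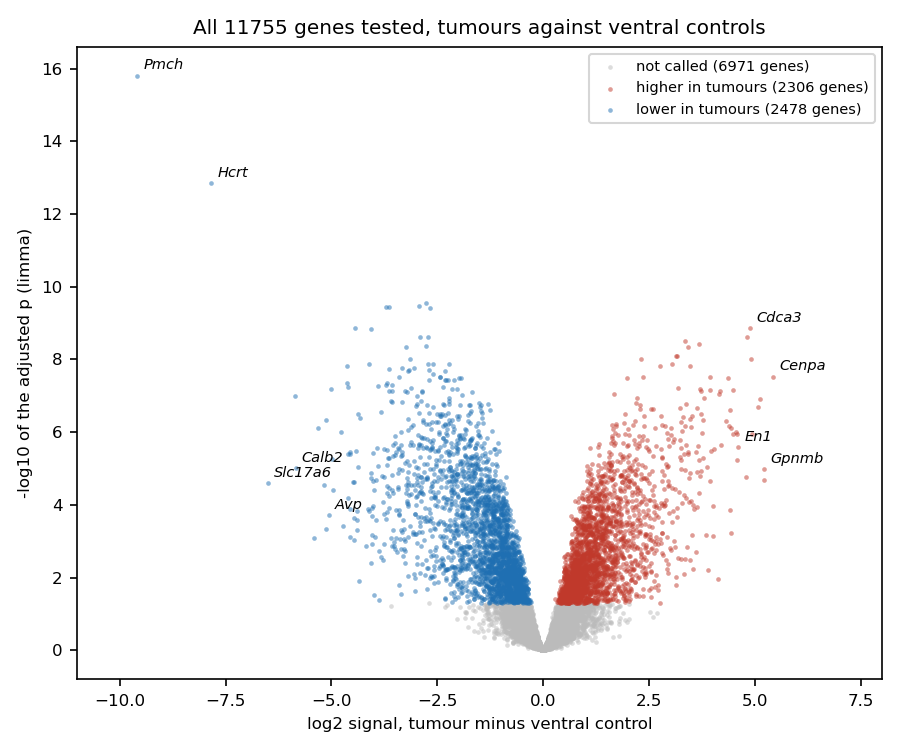
Difference in log2 signal between the 8 tumours and the 3 ventral controls (horizontal axis) and -log10 of the limma adjusted p (vertical axis) for each of 11755 genes. Pmch and Hcrt stand apart at the top left, with differences of -9.59 and -7.85, while the largest rise, that of Cenpa, is 5.43.

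The 12 largest rises among genes that were detected on all tumours and did not overlap included 5 genes of mitosis and 2 histone genes. Cenpa, the histone of the centromere, was 6.10, 6.13 and 5.86 in the ventral controls and ran from 10.86 over a median of 11.33 to 12.59 in the tumours, a 43.1-fold rise (5.43 ± 0.37, limma adjusted p = 2.95e-08). All 8 tumours lay more than 4 units above every ventral control. Cdc20, which switches on the anaphase-promoting complex, was 4.72, 5.12 and 5.17 in the ventral controls and ran from 8.88 over 9.87 to 10.36 in the tumours, 28.0-fold higher (4.81 ± 0.25, adjusted p = 2.37e-09). Cdca3, a trigger of mitotic entry, was undetected on 3 of 3 ventral and 5 of 5 dorsal arrays and lay between 8.66 and 10.19 in the tumours, so that it was at least 23.0-fold higher (adjusted p = 1.4e-09). The kinase Pbk and Cdca8, a subunit of the chromosomal passenger complex, were likewise undetected in ventral brain, and were at least 22.9-fold and 25.4-fold higher. Where ventral brain gave no detection, the bound sets the lowest detected signal of each array in its place. The histone genes H2ac15 (5.11 ± 0.40) and H2ac12 (5.07 ± 0.42) rose as well, with probes that may also bind transcripts of related histone genes.

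Other large rises belonged to macrophages, growth factor binding and interferon. Gpnmb, a glycoprotein of macrophages and of some tumour cells, was 5.49, 5.74 and 5.44 in the ventral controls and ran from 8.62 over 10.98 to 12.89 in the tumours (5.22 ± 0.64, limma adjusted p = 1.02e-05). Lyz2, the lysozyme of myeloid cells, was 5.47, 6.79 and 6.19 against 9.27, 11.05 and 12.61 as lowest, median and highest tumour (4.79 ± 0.62, adjusted p = 1.73e-05). The lowest tumour exceeded the highest ventral control in both, although the tumours were spread over more than 3 units. Igfbp2, which binds insulin-like growth factors, was 4.72, 6.31 and 4.51 in ventral brain and ran from 9.28 over 10.38 to 11.43 in the tumours (5.21 ± 0.69, adjusted p = 2.1e-05). Usp18, a protease that removes ISG15 from proteins, was 5.03, 5.11 and 4.98 and ran from 8.11 over 9.64 to 11.50 (4.58 ± 0.53, adjusted p = 5.79e-06). The size of a change depended on the probe. Second probes gave 2.18 for Gpnmb, 2.60 for Lyz2, 2.80 for Cdca3, 2.79 for Cdca8 and 3.16 for Usp18, all called and in the same direction.

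**Figure D2:**
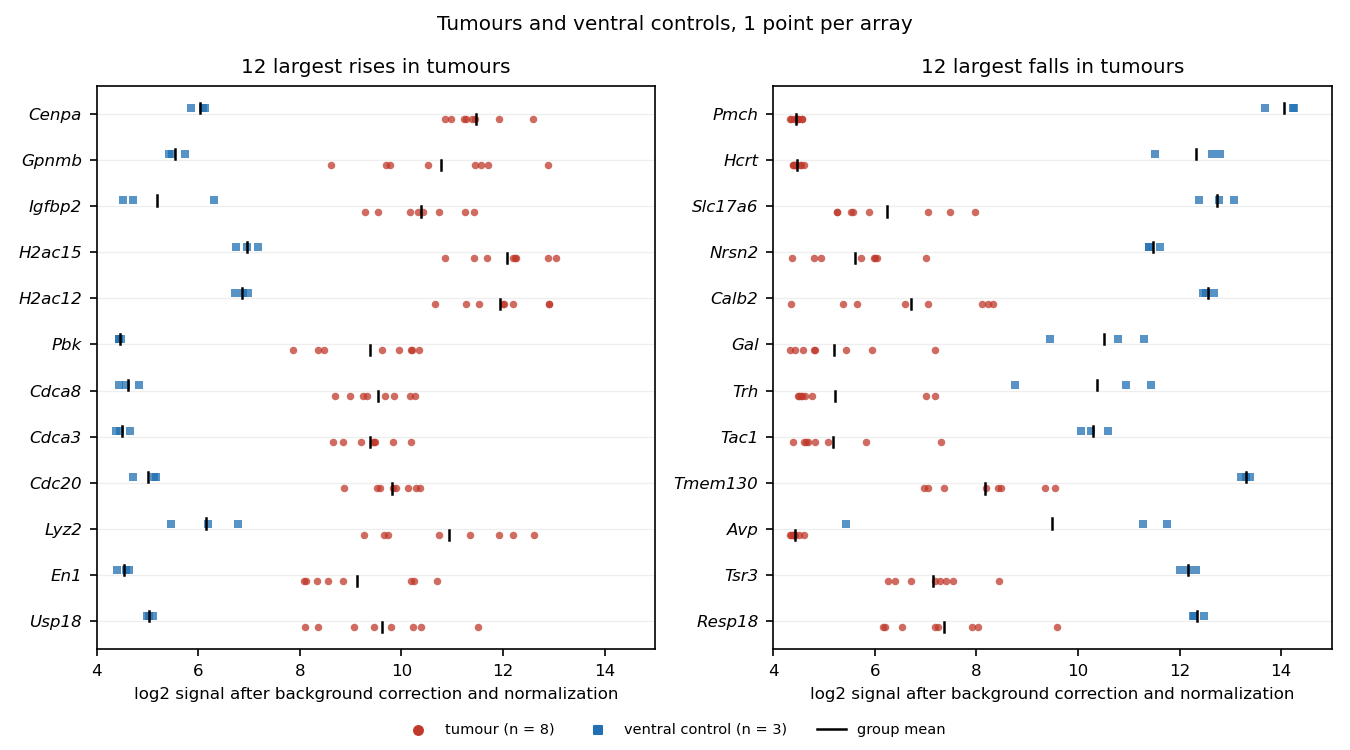
Log2 signal of the 12 genes with the largest rises (left) and falls (right) on each of the 8 tumour (red circles) and 3 ventral control arrays (blue squares), with black bars for group means. Groups do not overlap for any of these genes, which the choice requires, and the Avp square near 5.44 is ventral control 2.

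The falls were led by the peptide genes Pmch and Hcrt of the hypothalamus. Pmch, which encodes melanin-concentrating hormone, was 13.67, 14.25 and 14.23 in the ventral controls and was undetected on 8 of 8 tumours (4.34 to 4.57), so that it was at least 594-fold lower (fitted difference -9.59 ± 0.15, limma adjusted p = 1.58e-16). Hcrt, which encodes the orexins, was 11.51, 12.64 and 12.80 and was also undetected on 8 of 8 tumours, at least 179-fold lower (-7.85 ± 0.20, adjusted p = 1.44e-13). It was undetected in dorsal brain too, so Hcrt entered the genes tested only through the ventral controls. A second probe of Pmch gave -3.71. Gal, the gene of galanin, was 10.79, 9.44 and 11.30 in ventral brain and ran from 4.34 over 4.81 to 7.18 in the tumours (-5.32 ± 0.50, adjusted p = 7.78e-07). Trh, the gene of thyrotropin-releasing hormone, was 10.95, 8.77 and 11.43 against 4.48, 4.60 and 7.19 as lowest, median and highest tumour (-5.17 ± 0.70, adjusted p = 2.84e-05). Every tumour lay below every ventral control in each of these genes. In bulk tissue, fewer cells of a type and less RNA per cell cannot be told apart.

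The size of the fall in hormone genes of magnocellular neurons depended on 1 control. Avp, the gene of vasopressin, was 11.75, 5.44 and 11.28 in the ventral controls and was undetected on 8 of 8 tumours, at least 25.1-fold lower (-5.06 ± 0.85, limma adjusted p = 0.000194). Oxt, the gene of oxytocin, was 13.08, 5.67 and 13.42 and ran from 4.85 over 5.16 to 6.23 in the tumours (-5.40 ± 1.08, adjusted p = 0.000816). For Oxt, ventral control 2 lay within the range of the tumours. Without that control the differences were -7.08 for Avp and -7.93 for Oxt. Both passed whichever ventral control was left out (limma adjusted p up to 0.00326 for Avp and 0.0121 for Oxt). With the replicate number as a block Oxt did not pass (-5.26, adjusted p = 0.0522). Within chip 3, which holds ventral controls 2 and 3, neither passed (-3.99, adjusted p = 0.13, and -4.35, adjusted p = 0.196).

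The other large falls were those of neuronal genes with high signals in ventral brain. Slc17a6, the vesicular glutamate transporter of the diencephalon and brainstem, was 12.78, 13.08 and 12.38 in the ventral controls and ran from 5.26 over 5.73 to 7.97 in the tumours (-6.49 ± 0.87, limma adjusted p = 2.47e-05). Calb2, the calcium buffer calretinin, was 12.47, 12.69 and 12.51 against 4.35, 6.82 and 8.33 as lowest, median and highest tumour (-5.84 ± 0.71, adjusted p = 9.74e-06). The gap between the highest tumour and the lowest ventral control exceeded 4 units in both. Nrsn2, a vesicle protein of neurons (-5.86 ± 0.45), Tac1, the gene of substance P (-5.13 ± 0.96), Tmem130 (-5.13 ± 0.46) and Resp18, a secretory protein of endocrine cells (-4.99 ± 0.57), fell as well. Tsr3, which in yeast modifies ribosomal RNA, was 12.33, 11.999 and 12.16 in ventral brain and ran from 6.26 over 7.23 to 8.45 in the tumours (-5.01 ± 0.37, adjusted p = 6.33e-08). Its probes disagreed, since the others gave -5.09 and 2.50. The gene next to Tsr3 in RefSeq order, Baiap3, chosen after its values were seen, was 7.56, 7.27 and 7.32 in ventral brain (-2.94 ± 0.13). It was undetected on 8 of 8 tumours and 5 of 5 dorsal controls. With detection required on at least 3 arrays, Baiap3 entered only through the ventral controls, and its detection there follows from the filter. The neighbour on the other side, Gnptg, was at 0.03 ± 0.21 (adjusted p = 0.917).

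Among 18 measured genes of hypothalamic neuropeptides and hormones, 13 fell and 0 rose, with a median of -3.16. Beside those described, Cartpt (-4.35), Adcyap1 (-4.19), Tac2 (-3.21), Ghrh (-3.12), Npvf (-2.44), Nts (-2.32) and Kiss1 (-0.84) passed. The mean signal of the list ran from 7.71 to 9.06 on the ventral arrays, with ventral control 2 the lowest, and from 4.71 to 5.78 on the tumours, so the groups did not overlap. Of 10 diencephalic transcription factors, 6 fell and 1 rose, with a median of -1.23. Isl1, which specifies hypothalamic and other neurons, was 9.67, 9.24 and 9.98 in ventral brain and ran from 4.34 over 5.11 to 6.17 in the tumours (-4.46 ± 0.90, limma adjusted p = 0.000945). Lhx1 (-2.80 ± 0.33), Fezf1 (-2.73), Nkx2-1 (-1.77), Foxb1 (-1.12) and Lhx9 (-0.58) fell too. The member that rose was Nkx2-2, a factor of ventral progenitors and of oligodendrocyte precursors (1.40 ± 0.34, adjusted p = 0.00356).

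Of 16 thalamic and habenular genes, 8 fell and 2 rose, with a median of -0.87. Of all genes tested 21.1% fell and 19.6% rose, so the rises in the list were a smaller share than over all genes. Apart from Slc17a6, Calb2 and Tac1, the genes that fell included Cplx1 (-2.80) and Ntng1 (-2.53). Tcf7l2 and Gbx2, transcription factors of the thalamus, were at -0.44 and -0.03 and did not pass. Pou4f1, of the habenula and sensory neurons, rose by 1.30 ± 0.49 (limma adjusted p = 0.0427) with detection on 5 of 8 tumours and 0 of 3 ventral controls, and its call ended when any of tumours 5, 7, 8, 9 and 10 or any ventral control was left out (adjusted p 0.0514 to 0.119). Prkcd rose by 1.24. Without tumour 7, 8, 9 or 10 or 1 of the ventral controls, 0 or 1 of the list rose. Of 9 genes of monoamine and cholinergic neurons, 4 fell and 1 rose, again a smaller share of rises than over all genes. Hdc, which makes histamine in neurons of the posterior hypothalamus, lay between 10.02 and 11.74 in the 3 ventral controls and ran from 6.11 over 6.77 to 8.21 in the tumours (-3.93 ± 0.42, adjusted p = 2.7e-06). Ddc (-3.49 ± 0.56), Th (-2.64) and the dopamine transporter Slc6a3 (-1.10) fell with it. Tph2, which makes serotonin in neurons of the hindbrain raphe, was undetected on 3 of 3 ventral controls and detected on 8 of 8 tumours, at least 4.02-fold higher (adjusted p = 0.00344).

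Genes of the midbrain and hindbrain went the other way. Of 11 measured, 6 rose and 0 fell, with a median of 0.86. En1, a homeobox gene of the border between midbrain and hindbrain, was 4.57, 4.64 and 4.40 in the ventral controls and ran from 8.08 over 8.70 to 10.69 in the tumours, at least 19.3-fold higher (4.60 ± 0.49, limma adjusted p = 2.63e-06). It was detected on 8 of 8 tumours, 0 of 3 ventral and 0 of 5 dorsal controls. Hoxa5, a homeobox gene of the posterior hindbrain and spinal cord, had the same detection and ran from 5.28 over 8.59 to 10.22 in the tumours, against 4.24 to 4.30 in ventral brain, at least 10.7-fold higher (adjusted p = 0.000709). Hoxa2 was also detected on 8 of 8 tumours and 0 of 8 controls (2.29 ± 0.40, adjusted p = 0.000265). En2 (2.89), Irx2 (1.92) and Hoxa4 (0.86) rose as well. A second probe of En1 gave 1.86. The mean of the list was 6.23 to 7.13 on the tumours and 4.98 to 5.23 on the ventral arrays, without overlap. Without tumour 7 or ventral control 3, 1 member fell. The labels give no position for a tumour, and what part the place of the tumours had in these values was not tested.

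**Figure D3:**
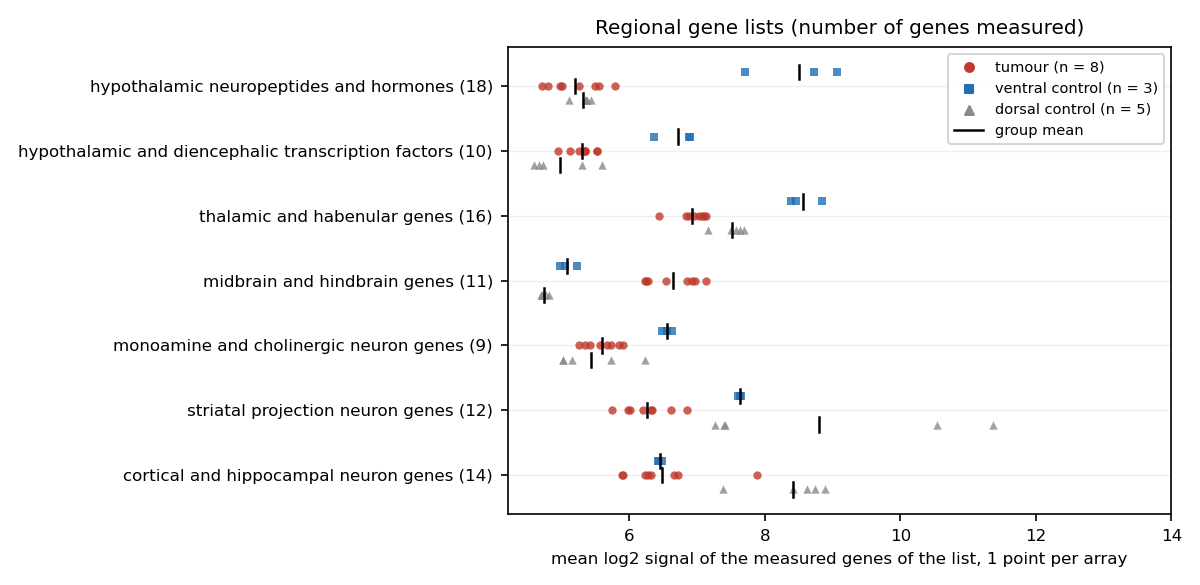
Mean log2 signal over the measured genes of each regional list (number in brackets) on each array, with tumours as red circles, ventral controls as blue squares, dorsal controls as grey triangles and group means as black bars. The tumours lie below the ventral controls in the hypothalamic and thalamic lists and above both controls in the list of midbrain and hindbrain genes.

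The ventral controls were then set against the dorsal controls, which tests whether the reference itself differs. Of the genes tested, 1111 (9.45%) passed between the control regions, 606 (5.16%) higher and 505 (4.30%) lower in ventral brain, with 737 (6.27%) past 2-fold. The estimate of the spread was shared with the more variable tumours. From the control arrays alone 2795 genes passed, and with array weights 4192, so the share depended on that estimate. Between tumours and dorsal brain 5890 genes (50.1%) passed, 3051 (26.0%) higher and 2839 (24.2%) lower in tumours. The comparisons with ventral and dorsal brain share the 8 tumours, and those of ventral brain with tumours and with dorsal brain share the 3 ventral controls, so the values are given side by side.

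A gene was counted as dependent on the reference when it passed with at least 2-fold between tumours and ventral brain and between ventral and dorsal brain, and did not pass, or had the opposite sign, between tumours and dorsal brain. Of the 11755 genes tested, there were 164 such genes lower than ventral control and 36 higher. Of the 164, 48 were undetected on 5 of 5 dorsal arrays, and 17 of these also on 8 of 8 tumours. Those 17 were detected in ventral brain alone, as were 29 of all 11755 genes. A probe was kept when detected on at least 3 arrays, so such genes entered only through the 3 ventral controls. Their detection there follows from the filter. In 87 of the 164 the mean of the tumours lay between those of the 2 control regions. The sign of the difference between ventral and dorsal brain was kept in 164 of 164 within chip 1 and in 163 within chip 3, again on arrays that gave the calls. Without ventral control 3 there were 131 and without tumour 5 there were 184, the extremes when an array was left out. These genes were chosen by the calls described, so their values describe them and are no further test.

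The 10 largest falls that depended on the ventral reference were those of Pmch, Hcrt, Calb2, Oxt, Gal, Trh, Avp, Tsr3, Igsf1 and Sncg. Hcrt was undetected on 5 of 5 dorsal controls (ventral minus dorsal at least 167-fold) and differed between tumours and dorsal brain by 0.08. Pmch was at 4.50 to 5.04 in dorsal brain, so that ventral brain exceeded it by 9.32 ± 0.16 and the tumours differed from dorsal brain by -0.28 (limma adjusted p = 0.0826). Igsf1, a membrane protein that regulates pituitary hormones, was 11.11, 11.04 and 10.94 in ventral brain, 4.84 to 5.29 in dorsal brain and 4.48 to 8.32 in the tumours. Sncg, the gene of gamma-synuclein, was 9.29, 9.54 and 9.99 in ventral brain and 4.56 to 6.14 in the tumours, while a second probe gave -0.78. For 18 of the 164 the tumours were at the same time higher than dorsal brain by a call. Hdc was such a gene, with -3.93 against ventral and 0.96 against dorsal brain (adjusted p = 0.0329).

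Without the requirement of 2-fold, 41 genes passed against both regions with opposite signs, 27 of them lower than ventral and higher than dorsal brain. Among these, chosen after their values were seen, were Gpx3, a secreted glutathione peroxidase (-2.02 against ventral and 3.19 against dorsal brain), Nnat, an imprinted gene of developing brain (-1.18 and 3.33), Agt, angiotensinogen of ventral astrocytes (-2.32 and 2.55), Cbln1, a synaptic organiser (-3.58 and 1.32), and the receptor Ret (-2.36 and 1.36). Nnat was 11.32, 10.58 and 10.99 in ventral brain, between 8.62 and 10.90 in the tumours and 6.46 on average in dorsal brain. The tumours therefore overlapped the ventral controls in Nnat but not in Gpx3, which was 11.20, 10.83 and 10.91 against 7.76 to 9.95 in the tumours.

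The 10 largest rises that depended on the ventral reference included Lpl, lipoprotein lipase, which was 6.70, 6.87 and 5.78 in ventral brain and ran from 6.97 over 9.76 to 11.59 in the tumours (3.18 ± 0.75, limma adjusted p = 0.0029). In dorsal brain it was 8.42 to 10.67, within the range of the tumours (tumour minus dorsal 0.21, adjusted p = 0.801). Igfbp4, another binding protein of insulin-like growth factors, rose by 3.12 ± 0.44 against ventral brain and differed by 0.26 from dorsal brain. Iqgap2, a scaffold of the cytoskeleton, was 6.35, 5.85 and 5.69 in ventral brain, 8.05 to 8.98 in the tumours and 8.02 to 8.55 in dorsal brain. Pdzrn3 (2.62), the semaphorin receptor Plxnd1 (2.09), Arhgap25 (at least 3.42-fold) and Vxn (2.06) followed, the last with a call that ended when any 1 ventral control was left out (adjusted p 0.0576 to 0.072). Within chip 1, ventral minus dorsal was -3.88 for Pdzrn3, -1.54 for Arhgap25 and -2.99 for Vxn. Within chip 3, where the dorsal array is dorsal control 5, it was only -0.58, -0.40 and -0.50. For the others of the 10 it was -2.71 to -5.25 within chip 3.

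Egr2 and Egr3 are immediate early genes, which neurons switch on with activity and growth factors switch on in dividing cells. They do not stand for the class. Of 11 immediate early and feedback genes, put together after their values were seen, 5 rose against ventral brain and 0 fell. Egr1 (1.23, limma adjusted p = 0.166), Egr4 (0.63), Fos (1.63, adjusted p = 0.0531), Fosb (-0.09), Arc (-0.32) and Npas4 (-0.43) did not pass. Egr2 was 5.09, 5.31 and 5.15 in ventral brain, 6.06 to 9.90 in the tumours and 7.19 to 8.87 in dorsal brain (tumour minus ventral 2.84 ± 0.65, limma adjusted p = 0.00246). Egr3 was 6.68, 6.62 and 5.51 in ventral brain, 6.06 to 9.52 in the tumours and 11.21 to 11.56 in dorsal brain. The tumours thus lay above the ventral mean by 2.07 ± 0.60 (adjusted p = 0.0117) and below the dorsal mean by a difference of -3.04, with 7 of 8 above every ventral control. Without ventral control 3 the rise of Egr3 did not pass (1.69, adjusted p = 0.0828), and a second probe gave -0.03. Epop, a partner of Polycomb repressors, had the same order, with 5.84, 6.86 and 5.88 in ventral brain, 7.06 to 9.47 in the tumours and 9.22 to 11.27 in dorsal brain.

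**Figure D4:**
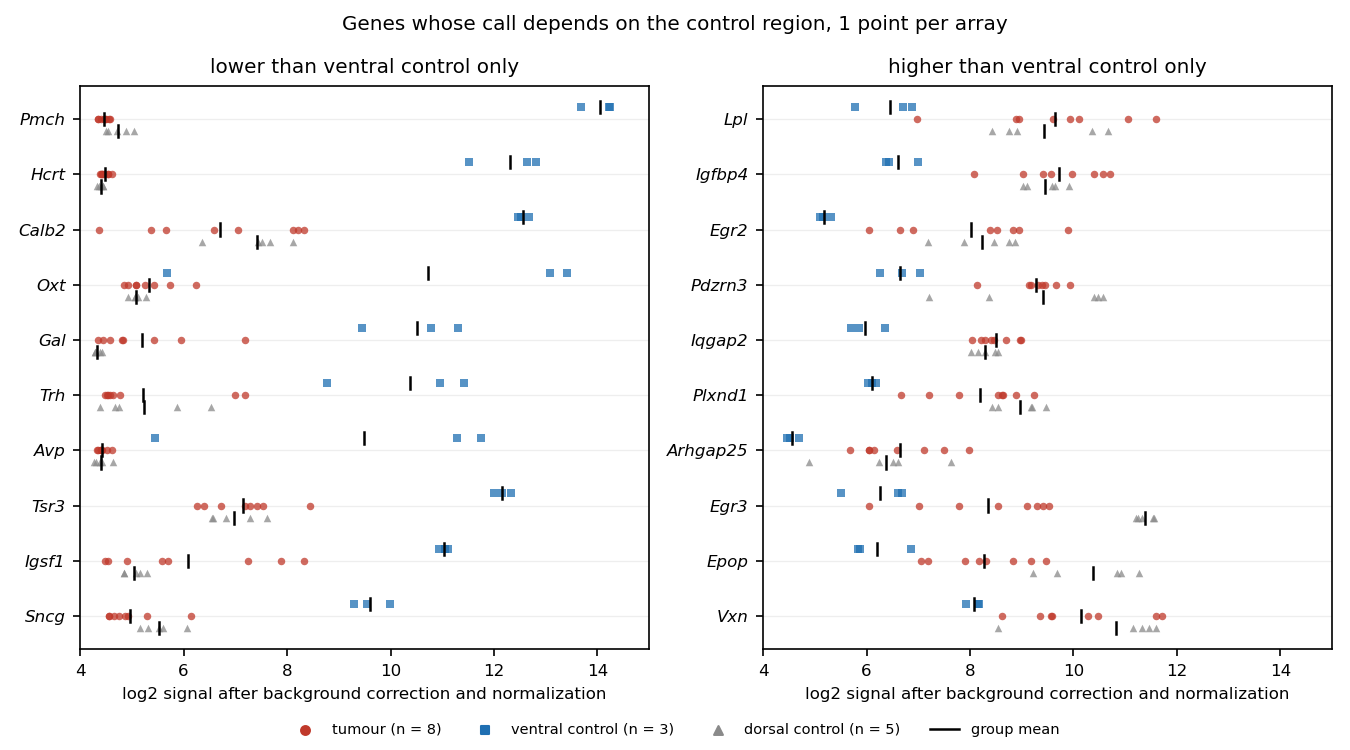
Log2 signal of the 10 largest falls (left) and rises (right) that depended on the ventral reference, on each tumour (red circles), ventral control (blue squares) and dorsal control array (grey triangles), with black bars for group means. Tumours and dorsal controls overlap for most of these genes, while in Egr3 the dorsal controls lie at 11.21 to 11.56, above all tumours.

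The ventral reference also left genes without a call that passed by 2-fold against dorsal brain and differed by 2-fold between the regions. There were 168 such genes lower and 64 higher in tumours than in dorsal brain. The falls against dorsal brain were led by genes of cortical and hippocampal neurons. Slc17a7, the vesicular glutamate transporter of cortex, was 4.73, 6.22 and 4.53 in ventral brain, ran from 4.50 over 5.52 to 10.20 in the tumours and was 9.19 to 12.02 in dorsal brain. Its difference from ventral brain was 1.08 ± 1.03 and from dorsal brain -5.01. Nrgn, a calmodulin-binding protein of dendrites (-1.84 ± 0.83, limma adjusted p = 0.088), Ddn (-0.996 ± 0.81), Arc (-0.32 ± 0.52) and Itpka (-0.43 ± 0.51) did not pass against ventral brain either. Gabrd, a GABA receptor subunit outside synapses, was undetected on 3 of 3 ventral controls and detected on 1 of 8 tumours, against 9.45 to 10.16 in dorsal brain.

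Of the genes higher than dorsal brain, Dlk1, an imprinted ligand related to Notch ligands, was 10.52, 10.34 and 10.53 in ventral brain and ran from 7.44 over 8.90 to 13.42 in the tumours (-0.58 ± 0.94, limma adjusted p = 0.657). In dorsal brain it was 4.43 to 5.12, so that 3 tumours lay above and 5 below every ventral control while all exceeded dorsal brain. The monoamine transporter Slc29a4 (0.29 ± 0.32), the arginine transporter Slc7a3 (0.14 ± 0.48), the apolipoprotein Apoc1 (-0.22 ± 0.59), Aard (0.72 ± 0.45) and Irx3 (0.12 ± 0.48) did not pass against ventral brain. A miss of the threshold does not show that the values are equal.

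Of 14 genes of cortical and hippocampal neurons, 0 fell and 1 rose against ventral brain, with a median of -0.10 that was 0.01 with median scaling, and 9 fell against dorsal brain. Without tumour 2, which had the highest mean of the list, 2 fell against ventral brain. The gene that rose was Lmo4, which was 10.99, 11.05 and 10.91 in ventral brain and ran from 11.65 over 12.45 to 13.24 in the tumours (1.60 ± 0.27, limma adjusted p = 0.000219). Of 12 striatal genes, 3 fell (25% of the list, near the 21.1% of all genes tested) and 0 rose, namely Pdyn, the gene of the dynorphins (-3.98 ± 0.78), Rasd2 (-3.25 ± 0.66) and Pde1b (-2.09).

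Genes that neurons share were lower in tumours than in ventral brain. Of 14 pan-neuronal genes, 13 fell and 0 rose, with a median of -2.92. Between ventral and dorsal brain 0 of them passed, for a list of this size near the 9.45% of all genes tested. Sncb, the gene of beta-synuclein, was 11.42, 11.74 and 11.39 in ventral brain and ran from 4.66 over 6.91 to 9.85 in the tumours (-4.57 ± 0.74, limma adjusted p = 0.000133). Vsnl1, a neuronal calcium sensor, was 12.95, 13.30 and 12.84 against 6.48, 8.47 and 10.51 as lowest, median and highest tumour (-4.48 ± 0.76, adjusted p = 0.000223). The mean of the list was 11.41 to 11.53 on the ventral arrays and differed among the tumours, from 7.31 in tumour 10 to 9.97 in tumour 2. Map2 fell by 0.82 and Elavl4 (-0.85) did not pass.

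Of 11 genes of GABAergic neurons, 7 fell and 0 rose, with a median of -2.86. Slc32a1, the vesicular GABA transporter, was 12.36, 12.44 and 12.91 in ventral brain and ran from 4.41 over 8.18 to 10.38 in the tumours (-4.72 ± 0.86, limma adjusted p = 0.000378). Gad2 (-4.60 ± 0.68), Sst (-4.57), Dlx1 (-4.04) and Pvalb (-3.83) fell too, whereas the peptide gene Npy was at 0.05 against ventral and lower in ventral than in dorsal brain by 3.71. Of 20 genes of synaptic vesicles and release, 17 fell and 0 rose, with a median of -2.47, or 1 rose without tumour 9. Vamp1, a vesicle fusion protein, was 9.23, 9.54 and 9.21 in ventral brain and 5.16 to 6.34 in the tumours (-3.80 ± 0.49, adjusted p = 1.56e-05), and another of its probes gave -0.23. Rph3a (-3.77 ± 0.41), Syp (-3.42) and Sv2a (-3.32) were among the others.

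Of 21 voltage-gated channel genes, 14 fell and 1 rose, with a median of -1.29. Scn2b, a beta subunit of sodium channels, was 10.67, 10.90 and 10.79 in ventral brain and ran from 5.18 over 6.04 to 8.00 in the tumours (-4.57 ± 0.50, limma adjusted p = 3.48e-06). The pore-forming subunit Scn2a was 9.33, 9.11 and 9.52 against 5.41, 6.01 and 6.68 as lowest, median and highest tumour (-3.34 ± 0.27). The tumours did not overlap the ventral controls in either. Kcnip3, a calcium sensor that binds potassium channels and DNA, rose by 1.09 ± 0.21 (adjusted p = 0.000625), and it was lower in ventral than in dorsal brain by 1.23.

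Of 29 cell cycle genes, 25 rose and 0 fell, with a median of 2.80. Beside those described, Top2a, the topoisomerase of dividing cells (4.54 ± 0.44), Prc1 (4.48), Birc5 (3.75) and Cdk1, the kinase of mitotic entry (3.35), rose, as did the replication helicase subunits Mcm5 (3.38), Mcm6 (3.18), Mcm2 (2.80), Mcm7 (2.20) and Mcm3 (1.89). The mean of the list was 4.95 to 5.07 on the ventral arrays and 7.09 to 8.65 on the tumours, without overlap. Kif20a (0.05), Rrm2 (0.56), Rrm1 (1.23) and Plk1 (1.89) did not pass. E2f1, a factor that drives entry into the cycle, rose by 1.65 against ventral brain and was lower than in dorsal brain (-0.89, limma adjusted p = 0.046).

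Genes of oligodendrocyte progenitors rose in 14 of 18 cases and fell in 0, with a median of 1.51, or 1.43 with undetected groups at their bound. Olig2, a factor of the oligodendrocyte lineage, was 4.83, 5.00 and 4.79 in ventral brain and ran from 6.32 over 8.06 to 9.68 in the tumours (3.27 ± 0.50, limma adjusted p = 8.95e-05). Matn4, a matrix protein of progenitors, was 8.54, 8.37 and 8.12 against 8.19, 11.85 and 12.94 as lowest, median and highest tumour, so that 7 of 8 tumours exceeded every ventral control (2.91 ± 0.70, adjusted p = 0.00338). The growth factor receptor Pdgfra (2.54 ± 0.67), the proteoglycan Cspg4 (2.41) and Sox10 (2.06) rose too, and Gpr17 (0.82) did not pass.

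Of 18 genes of neural stem and progenitor cells, 13 rose and 0 fell, with a median of 1.88. Sox4, a factor of immature neural cells, was 7.33, 7.18 and 7.10 in ventral brain and 10.24 to 11.40 in the tumours (3.64 ± 0.30, limma adjusted p = 2.16e-07), while a second probe gave 0.63. Nes, the intermediate filament of progenitors, was 4.62, 5.08 and 4.78 and ran from 6.36 over 8.28 to 10.10 (3.54 ± 0.55, adjusted p = 0.0001). Sox11 (2.29), Sox2 (1.90) and Notch1 (1.87) rose as well, and Egfr was at -0.13.

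Mature glia showed the opposite direction in part. Of 17 astrocyte genes, 9 fell and 0 rose, with a median of -1.40, and 5 fell when tumour 6, tumour 8 or any ventral control was left out. Ntsr2, a neurotensin receptor of astrocytes, was 11.66, 12.06 and 11.71 in ventral brain and ran from 7.21 over 8.12 to 9.32 in the tumours (-3.50 ± 0.35, limma adjusted p = 1.31e-06). Slc6a11, a GABA transporter, was 9.70, 9.95 and 9.49 against 5.54, 6.13 and 8.38 (-3.21 ± 0.49, adjusted p = 7.96e-05). It was higher in ventral than in dorsal brain by 2.55 ± 0.53, and the tumours differed from dorsal brain by -0.65 (adjusted p = 0.198). Gfap, the filament of reactive astrocytes, was 9.51, 8.95 and 8.37 in ventral brain and ran from 8.07 over 9.98 to 12.91 (1.34 ± 0.81, adjusted p = 0.203).

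Genes of myelin and oligodendrocytes, 13 in number, held 6 that fell and 0 that rose, with a median of -1.83, and 3 fell without ventral control 1 or 2. Mobp was 10.70, 11.25 and 10.67 in ventral brain and ran from 4.73 over 6.01 to 10.35 in the tumours (-4.08 ± 1.00, limma adjusted p = 0.00398). Mbp, myelin basic protein, was 14.11, 14.38 and 13.96 against 7.33, 10.43 and 14.02, with 7 of 8 tumours below every ventral control (-3.40 ± 1.04, adjusted p = 0.0157), and did not pass without ventral control 1 or 2 (adjusted p 0.0505 and 0.0593). The mean of the list ran from 7.05 to 10.92 over the tumours and overlapped the ventral range of 10.30 to 10.78.

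Myeloid genes rose in part. Among 13 genes of macrophages and monocytes, 7 rose and 0 fell, with a median of 1.84, or 1.55 with undetected groups at their bound. Lgals3, a lectin of activated macrophages (3.87), and Ccl5 (2.92) rose beside Gpnmb and Lyz2. The mean of the list was 5.66 to 6.08 in ventral brain and 6.80 to 9.80 in the tumours, with tumour 2 the highest. Of 14 microglia genes, 6 rose and 0 fell, with a median of 1.14 that was 0.23 within chip 1 and 1.68 within chip 3. The complement genes C1qc (2.63 ± 0.55, limma adjusted p = 0.00118), C1qb (2.55) and C1qa (2.58 ± 0.56), with Trem2 (1.94), Fcrls (2.03) and Sall1 (1.03), passed. The homeostatic genes Cx3cr1 (0.14), P2ry13 (0.15) and Tmem119 (0.52) did not. C1qc was 8.32, 8.37 and 8.21 in ventral brain and ran from 8.97 over 11.24 to 12.56 in the tumours. Tumour 9 had the lowest mean of the microglia list, at 6.38, below the ventral range of 6.91 to 7.21.

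Of 16 interferon-response genes, 15 rose and 0 fell, with a median of 2.23, or 2.16 with undetected groups at their bound. Gbp3, a GTPase induced by interferon, was 5.84, 6.18 and 6.24 in ventral brain and 8.86 to 10.86 in the tumours (3.78 ± 0.34, limma adjusted p = 4.51e-07). Isg15, the ubiquitin-like protein that Usp18 removes, was 5.01, 4.78 and 5.25 in ventral brain and ran from 7.50 over 8.52 to 10.16 in the tumours (3.63 ± 0.45, adjusted p = 1.25e-05). Oasl2 (3.60 ± 0.40), Ifitm3 (3.61 ± 0.80) and the antiviral Rsad2 (3.02 ± 0.28) followed. The mean of the list was 5.96 to 6.06 on the ventral arrays and 7.51 to 9.53 on the tumours. Of 14 antigen presentation genes, 9 rose and 0 fell, with a median of 1.68. H2-Ab1, an MHC class II chain, was 5.04, 5.46 and 4.68 in ventral brain and ran from 6.63 over 8.01 to 11.06 in the tumours (3.48 ± 0.83, adjusted p = 0.00321). The immunoproteasome subunit Psmb8 (3.24 ± 0.37) and B2m, the light chain of class I (2.79), rose too, and H2-Aa (0.89) did not pass.

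Among 21 matrix and mesenchymal genes, 13 rose and 1 fell, with a median of 2.17. Vim, the filament protein vimentin of immature or reactive glia, was 7.19, 7.24 and 6.85 in ventral brain and ran from 10.25 over 11.65 to 13.17 in the tumours (4.57 ± 0.45, limma adjusted p = 1.11e-06). Tnc, a matrix glycoprotein, was 4.73, 5.51 and 4.94 against 7.64, 8.98 and 11.76 as lowest, median and highest tumour (4.41 ± 0.72, adjusted p = 0.000142). Other probes of Tnc gave 4.22, 0.94 and 1.32, of which the last 2 did not pass. Timp1 (3.53), the hyaluronan receptor Cd44 (3.33) and Lgals1 (3.13) rose as well, while the collagens Col1a1 (0.77) and Col1a2 (0.21) did not pass. Chil1, a secreted protein of reactive astrocytes, fell by 1.39 ± 0.31 (adjusted p = 0.00194).

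Vessels, blood and choroid plexus changed less uniformly. Of 19 endothelial and pericyte genes, 1 rose and 2 fell (shares below the background of all genes), with a median of 0.00. Vwf rose by 1.45 ± 0.50 (limma adjusted p = 0.0305), a call that ended when any 1 ventral control was left out (adjusted p 0.0736 to 0.104). Pltp fell by 1.11 ± 0.26, and the fall of Flt1 (-1.18 ± 0.45, adjusted p = 0.0449) ended when any of 8 arrays, tumours 3, 7, 8, 9 and 10 or a ventral control, was left out (adjusted p 0.0606 to 0.138). When any 1 ventral control was left out, 0 of the list rose and 1 fell. Of 5 blood genes, 2 fell. Hbb-bs, a beta-globin, was 11.61, 13.21 and 13.89 in ventral brain and ran from 5.19 over 8.65 to 14.25 in the tumours (-4.002 ± 1.39, adjusted p = 0.0305). Its call ended without ventral control 2 or 3, and that of Hbb-bt (-3.88 ± 1.44, adjusted p = 0.0411) when any of 8 arrays was left out. The count of blood genes that fell ran from 0 to 5 over the arrays left out, and the mean of the list ran from 4.98 in tumour 9 to 11.90 in tumour 6.

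Of 8 choroid plexus and ependyma genes, 3 fell and 1 rose, while 21.1% of all genes tested fell and 19.6% rose. The rises were a smaller share than over all genes. Clic6 was 8.94, 8.92 and 9.25 in ventral brain and 4.48 to 7.01 in the tumours (-3.45 ± 0.77, limma adjusted p = 0.00201). It was 3.09 ± 0.83 higher in ventral than in dorsal brain. Kl (-0.88 ± 0.16) and Rarres2 (-0.77) fell as well, and the transthyretin gene Ttr (-1.77) did not pass. The water channel Aqp1 was undetected on 8 of 8 controls and detected on 8 of 8 tumours, at least 2.70-fold higher (adjusted p = 0.0329), with a call that ended when any 1 ventral control was left out (adjusted p 0.0777 to 0.103).

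Of 13 genes that report RAS-MAPK output, 9 rose and 0 fell, with a median of 1.89. Etv4, a transcription factor induced by ERK, was 5.56, 6.04 and 5.85 in ventral brain and ran from 7.47 over 9.91 to 10.66 in the tumours (3.63 ± 0.57, limma adjusted p = 0.000115). Ccnd1, cyclin D1, was 9.68, 9.64 and 9.84 against 11.97, 12.94 and 14.74 as lowest, median and highest tumour (3.49 ± 0.53, adjusted p = 8.01e-05). The feedback phosphatase Dusp6 rose by 2.67 against ventral brain and was itself lower in ventral than in dorsal brain by 1.78, and the like held for Dusp5 (0.99 and 2.39). Of 10 p53 targets, 4 rose and 2 fell (20% of the list, near the 21.1% of all genes tested). When any 1 ventral control was left out 2 rose, a share near the 19.6% of all genes. Cdkn1a, the inhibitor p21, rose by 1.70 ± 0.34 (adjusted p = 0.000844) and Bbc3 by 1.23 ± 0.26, although 2 other probes of Bbc3 gave -0.18 and -0.03. Mdm2 (0.51) and Trp53inp1 (0.81) rose, and Phlda3 (-1.28 ± 0.32) and Zmat3 (-0.99) fell.

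Genes of general metabolism moved by small amounts. Of 18 genes of oxidative phosphorylation, 14 fell and 0 rose, with a median of -0.56 and 0 past 2-fold, and 8 or 9 fell when a ventral control was left out. Ndufb5, a subunit of complex I, was 7.81, 7.80 and 7.91 in ventral brain and ran from 6.60 over 7.02 to 7.30 in the tumours (-0.85 ± 0.17, limma adjusted p = 0.000853). Cox6c fell by 0.72 ± 0.20 (adjusted p = 0.00952), but did not pass without ventral control 2 (-0.62, adjusted p = 0.0601). Of 19 genes of cytosolic ribosomal proteins, 14 rose and 0 fell, with a median of 0.82 and 4 past 2-fold. Rplp0, of the ribosomal stalk, was 6.86, 6.64 and 6.85 in ventral brain and 7.99 to 8.93 in the tumours (1.67 ± 0.17, adjusted p = 2.19e-06), and Rpl22 rose by 1.54 ± 0.25. Of 3 sex-linked genes measured, Xist, Uty and Eif2s3y, 0 passed.

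**Figure D5:**
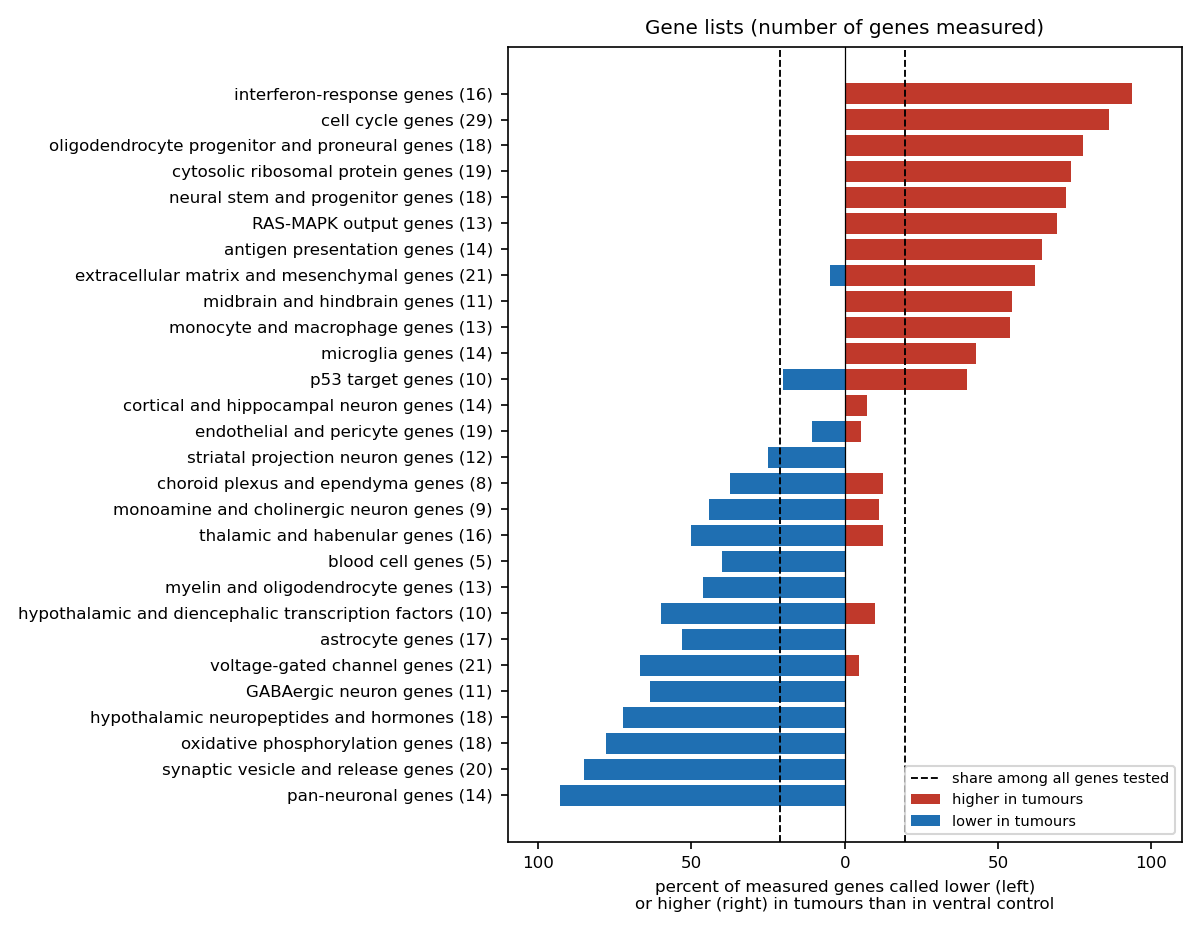
Percent of the measured genes of each list (number in brackets) that were called lower (blue, to the left) or higher (red, to the right) in tumours than in ventral control, with dashed lines at the share among all 11755 genes (21.1% lower and 19.6% higher). Interferon-response, cell cycle and progenitor lists lie at the top, and oxidative phosphorylation, synaptic and pan-neuronal lists at the bottom.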

How the data were processed

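Transcripts were measured in total RNA of flash-frozen tissue, extracted with a Qiagen lipid tissue kit and labelled with biotin per the labels' protocols, with 1 array per sample. The authors deposited for each probe an intensity that was neither background-corrected nor normalized and a detection p-value. They also deposited log2 values of 38563 probes, made by steps not given in the sources used here, which correlated at r = 0.99999725 or more with the values computed here and served as an alternative. Groups came from the labels. Background was corrected and arrays quantile-normalized with neqc of limma 3.58.1 in R 4.3.3 (offset 16), and probes with a detection p under 0.05 on at least 3 arrays were kept (23131 of 45281). Of these, 4989 had no single gene in the platform annotation and were left out. The annotation lists 32109 probes, 16 of them with several genes, and 32035 symbols were updated by Entrez number. Each gene was represented by its brightest probe, which left 11755 genes. Of these, 4379 had several probes to choose from.

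A model of 3 group means was fitted with lmFit and eBayes to all 16 arrays. In each comparison the group left out therefore shared in the estimate of the spread, as the tumours did between the control regions. The p-values were adjusted by Benjamini and Hochberg over all genes. Probes of related transcripts may share signal, and the number of arrays limits the precision. Nothing says whether tumours and controls shared litters, and the labels number each group separately. The members and lists were chosen with earlier results of these data known. Named were the 12 largest rises and falls without overlap, the 10 largest each way that depended on the ventral reference, the 6 largest each way that passed against dorsal brain only, and in each list the 2 largest changes and the largest the other way. Other members of a list were named as further examples after their values were seen. The fit was tested on simulated data. Some items are not reported here. Alternatives were other background corrections, scalings, filters, probe rules, variance priors, the chip or replicate number as a block, fits within a chip and arrays left out. Promoters came from RefSeq tables (GRCm38.p6), in which 9463 of 11755 genes had a window.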

Additional observations from a re-analysis of the deposited data

Results flagged for a closer look

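Of 135 comparisons of 1 array with the rest of its group, over 103 named genes, 10 found the highest or lowest array far from the others, and chance marks about 1 in 20. Tumour 2 stood apart in Itpka (8.19, the others 4.78 to 6.38), Vamp1 (6.34, the others 5.16 to 5.55) and Rpl22 (10.15, the others 11.05 to 11.65). It also had the highest mean of the pan-neuronal genes. Tumour 7 was high in Sncg (6.14, the others 4.56 to 5.29), tumour 8 in Lhx1 (6.33, the others 4.30 to 4.98) and tumour 9 in Kl (5.02, the others 4.42 to 4.61). Tumour 6 was low in Pdzrn3 (8.14, the others 9.15 to 9.93) and tumour 5 in Phlda3 (6.80, the others 7.96 to 8.78). Dorsal control 5, which had the highest striatal signal, was low in Vxn (8.55, the others 11.15 to 11.60) and in Slc17a7 (9.19, the others 11.46 to 12.02).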

How the results depend on the processing

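The count of 4784 genes was 4786 with the authors' log2 values, 4700 with chip as a block, 4172 from the arrays of the tumours and ventral controls alone, 6543 with array weights, 4791 with tumours 8 and 9 averaged and 4669 without dorsal controls 4 and 5. When 1 array was left out it ran from 3588 to 4935, with 1646 to 2406 higher, 1942 to 2571 lower and 2578 to 3001 past 2-fold. The control regions then differed in 577 to 1101 genes and tumours and dorsal brain in 5364 to 5980. Genes that depended on the reference then numbered 131 to 184 lower and 16 to 43 higher than ventral brain, and 123 to 197 lower and 48 to 73 higher than dorsal brain. In that order they were 164, 36, 168 and 64 over all arrays, 71, 12, 104 and 22 with no background correction (which also left 1374 genes past 2-fold), 0, 0, 0 and 0 within chip 1 and 91, 9, 95 and 34 within chip 3. Those lower than ventral brain were 103 with detection required on 8 arrays. Those higher than ventral brain were 77 with array weights, 22 with chip as a block and 56 with the replicate number as a block, and those higher than dorsal brain 105 with array weights. Between the control regions 4192 genes passed with array weights, 2795 from their own arrays, 319 within chip 3 and by limma 0 within chip 1, which holds 1 array of each. Within chip 1, 123 genes passed between tumours and ventral brain, 36 higher, 87 lower and 123 past 2-fold, with 2820 at an unadjusted p under 0.05, and 710 against dorsal brain. Within chip 3, 1517 were higher than ventral brain and 2350 passed against dorsal brain. These fits hold fewer samples.

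Nothing in the labels says whether arrays with the same number came from 1 mouse. The deviations from the group mean of same-numbered ventral and dorsal arrays correlated at -0.058, 0.047 and -0.044. Those of same-numbered ventral arrays and tumours correlated at 0.140 and 0.046. Correlations over so few arrays cannot decide whether arrays were paired. With the replicate number as a block 3736 genes passed. Xist turned sign within chip 1 (0.085) and with the replicate block (3.10, against -0.86), without a call in the main comparison. Of 103 results for named genes, 10 lost the call when 1 array was left out, 80 lost it or turned sign within chip 1, 26 lost it within chip 3 and 19 kept theirs under every alternative run. Which transcripts lie below the array's background limits what could be measured, and the cause of the other differences was not tested.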

Other observations

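Further gene groups were put together after their values were seen and are given as values without a test of the group. Of 13 measured chemokine genes, 8 rose against ventral brain and 2 fell, with a median of 2.10, while 19.6% of all genes tested rose and 21.1% fell. Cxcl13, which attracts B cells, had a mean of 8.34 ± 1.64 (SD, n = 8) in the tumours and was undetected in ventral brain (4.51 ± 0.08, n = 3). Cxcl10, induced by interferon, was 7.68 ± 0.86 and undetected in ventral brain (4.42 ± 0.13), and Ccl4 was 7.70 ± 1.16 against 4.66 ± 0.14. The 2 that fell are made by neurons or vessels of normal brain: Cxcl12 was 6.32 ± 1.28 against 8.92 ± 0.15, and Cx3cl1, the neuronal ligand of the microglial receptor Cx3cr1, was 8.47 ± 0.59 against 10.35 ± 0.13.

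Of 13 genes of motile cilia, which ependymal cells carry along the ventricles, 12 fell against ventral brain, with a median of -1.88. Among all genes tested 21.1% fell, but the 13 were picked with their values known, so the count is no test. The radial spoke genes Rsph1 (6.44 ± 1.26 in tumours, 8.80 ± 0.48 in ventral and 6.55 ± 0.19 in dorsal brain), Rsph4a (4.77 ± 0.54, 7.51 ± 0.36 and 4.72 ± 0.11) and Rsph9 (7.58 ± 0.80, 9.46 ± 0.24 and 7.34) were higher in ventral than in dorsal brain, with tumours near the dorsal mean. Foxj1, the factor that switches on such genes, lay near background in all 3 groups (4.75, 4.68 and 4.62). Other members departed from the pattern of the radial spoke genes. Spag6l was 5.02 ± 0.60 in tumours, 7.63 ± 0.38 in ventral and 6.91 ± 0.35 in dorsal brain. It was lower in tumours than in dorsal brain (-1.89, limma adjusted p = 2.46e-05). Neither Spag6l nor Tekt1 passed between ventral and dorsal brain (adjusted p = 0.255 and 0.286).

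Some genes differed widely among the ventral controls. Cops8 was 8.82, 4.38 and 4.44 and Pomc 8.92, 5.06 and 4.42. Fezf1, a factor of the ventromedial hypothalamus, was 9.67, 4.74 and 8.75.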
